A study of Mus musculus with 8 samples.

Results

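Control libraries of neonatal mouse brain were compared with each other, 64A5 and 64A6 with code letter A against 64D6 and 64D7 with code letter D. These are 2 and 2 of the 8 libraries of the series, chosen by the letter in their titles with earlier results of these data known. All 4 came from neonates of naturally mated wild-type C57BL/6 parents, and the labels give neither their sex nor the meaning of the letter. The other 4 libraries, 64F1 and 64F3 with code F and 64G1 and 64G4 with code G, came from ICSI-F2 neonates of the same strain. ICSI is the injection of a sperm into the egg, and the ICSI-F2 animals were males fathered by naturally mated ICSI-born males. The tissue is labelled brain in every library, with no word on how far back the dissection reached. Messenger RNA was counted per gene, and levels are given as CPM, the count scaled to a common library size after TMM normalisation. Whether libraries of the same letter are independent animals is not stated, so p-values measure the spread between these libraries, which may be technical in part.

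Hox genes encode homeodomain transcription factors that give cells their position along the head to tail axis. They lie in clusters, and their order along the chromosome, counted as paralogue groups, follows the order of their front borders in the embryo. Forebrain and midbrain neurons do not normally use them, low-numbered groups are active in the hindbrain, and higher-numbered groups begin in the spinal cord. Glycine is a main inhibitory transmitter of the brainstem and cord, and Slc6a5 encodes the transporter that loads it into nerve endings. Hoxa5, Hoxb5 and Slc6a5 therefore serve here as markers of posterior, that is hindbrain or cord, tissue.

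The sequences just upstream of the start sites of marker genes are shown, since these genes define the posterior signal described below. RefSeq's promoter table (GRCm38.p6) held 3 of the 4 genes looked up, Hoxa5, Slc6a5 and Hoxb8, the Hox gene that differed most inside the code A pair. Each line gives 250 bases, 5′ to 3′ on the gene's own strand, and capitals mark TGATNNAT on either strand, a pattern that HOX and PBX proteins bind together. It occurred in 7.68% of the 32851 listed promoters of this length and in 4 of 24 listed Hox promoters.
Hoxa5: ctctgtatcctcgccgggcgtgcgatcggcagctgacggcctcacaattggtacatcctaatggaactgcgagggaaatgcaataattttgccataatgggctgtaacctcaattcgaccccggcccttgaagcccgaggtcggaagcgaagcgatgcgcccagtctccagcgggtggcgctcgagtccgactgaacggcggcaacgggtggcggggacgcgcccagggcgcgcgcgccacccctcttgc
Slc6a5: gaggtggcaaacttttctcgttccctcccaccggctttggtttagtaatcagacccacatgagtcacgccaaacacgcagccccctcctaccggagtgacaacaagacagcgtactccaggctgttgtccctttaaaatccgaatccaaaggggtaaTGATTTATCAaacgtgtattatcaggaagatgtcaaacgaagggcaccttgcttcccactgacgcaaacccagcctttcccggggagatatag
Hoxb8: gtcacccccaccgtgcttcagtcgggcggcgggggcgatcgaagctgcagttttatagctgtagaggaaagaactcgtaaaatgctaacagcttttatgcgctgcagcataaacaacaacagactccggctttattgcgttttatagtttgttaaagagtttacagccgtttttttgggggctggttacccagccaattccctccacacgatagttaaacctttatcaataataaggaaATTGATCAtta
The Hoxa5 stretch is chr6:52204588-52204837 on the minus strand, the Slc6a5 stretch chr7:49910049-49910298 on the plus strand and the Hoxb8 stretch chr11:96281655-96281904 on the plus strand. The Slc6a5 stretch held 2 overlapping matches, 1 per strand, and the Hoxb8 stretch held 1 on the minus strand. RefSeq's start of Slc6a5 lies inside the annotated gene body used below. The letters were not found in the Hoxa5 stretch, which says nothing about other sites.

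Library totals were 15163420 to 16551511 counts in code A, 13872777 to 15893631 in code D and 12968175 to 16348777 in the ICSI-F2 libraries. Of 32285 genes, 24101 had a count and 16101 passed the filter on low counts and were tested. No library was counted as a duplicate: a chi-square of the counts of each pair, divided by the genes compared, came to 3.26 for code A and 2.2 to 2.62 for the other letters, where sampling alone gives about 1. On the first principal component 64A5 (-27.8) and 64A6 (-18.1) lay outside the range of the other 6 libraries, -3.65 to 16.5. Mitochondrially encoded genes took 0.74% and 0.776% of counts in code A and 0.744% and 0.725% in code D.

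Against code D, 123 genes (0.764% of those tested) rose in code A and 41 (0.255%) fell, at an adjusted p of at most 0.05 in edgeR's quasi-likelihood test. The rises were larger. Of the 123, 31 exceeded 2-fold and 74 stayed under 1.5-fold, while 1 of the 41 falls exceeded 2-fold and 38 stayed under 1.5-fold. Over all tested genes the median log2 fold change, A minus D, was -0.001, and 49.4% lay above 0. The SE of this fold change was 0.104 in the median gene. At an unadjusted p under 0.05 the counts were 989 higher and 796 lower. Single libraries decided much of this. Without 64A5 the counts were 30 higher and 8 lower, without 64D6 31 and 5, without 64D7 94 and 27, and without 64A6 141 and 69. DESeq2 called 59 and 18, the 4 control libraries alone gave 189 and 56, and no filter on low counts gave 269 and 96.

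**Figure D1:**
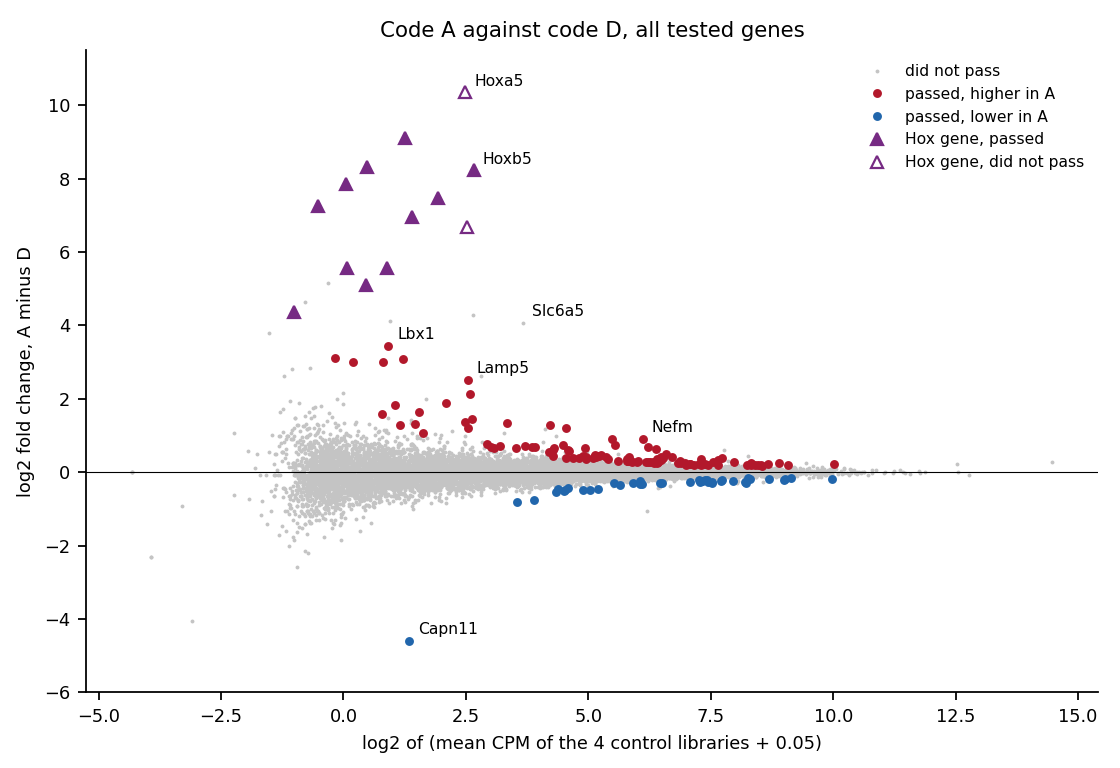
Log2 fold change, code A minus code D, of the 16101 tested genes against the log2 of their mean CPM over the 4 control libraries. Red points passed higher in A, blue points passed lower in A, and triangles are the 13 tested Hox genes, filled where they passed; among the genes that passed, the Hox genes lie highest, at 4.36 or more, and Capn11 lowest, at -4.60.

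The 3 markers were higher in both code A libraries than in both code D libraries. Hoxa5 (ENSMUSG00000038253, chromosome 6, 52201754 to 52204587, minus strand, mm10) had 266 and 90 counts in 64A5 and 64A6 and 0 in both code D libraries. That is 16.3 and 5.96 CPM in code A, at least 112-fold higher than a floor of 3 counts over the code D pair. Hoxb5 (ENSMUSG00000038700, chromosome 11, 96303336 to 96306121, plus strand) had 290 and 112 counts in code A, against 1 and 0 in code D. Slc6a5 (ENSMUSG00000039728, chromosome 7, 49910146 to 49963856, plus strand) had 26.1 and 21.8 CPM in code A, against 1.07 and 1.8 CPM in code D. In the 4 ICSI-F2 libraries Hoxa5 and Hoxb5 had at most 1 count each, and Slc6a5 ran between 0.684 and 6.28 CPM, highest in 64F1. In bulk tissue, fewer cells of a type and less RNA per cell cannot be told apart.

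The tests of the 3 markers depended on the fit. The comparison and its markers were chosen with earlier results of these data known, so these p-values are a description and no independent support. Hoxb5 passed (edgeR adjusted p = 0.0309), with a code A to code D ratio of 380 and a counting interval of 67.9 to 15100. Slc6a5 did not pass over all 8 libraries, with a log2 fold change of 4.08 (SE 0.61) and an edgeR adjusted p of 0.0997. Hoxa5 did not pass either (edgeR adjusted p = 0.24). The ratio of 64A5 to 64A6 was 2.73 for Hoxa5 (counting interval 2.14 to 3.51) and 2.39 for Hoxb5 (1.92 to 3). In the 4 control libraries alone Slc6a5 passed (edgeR adjusted p = 9.12e-19), while Hoxa5 (0.606) and Hoxb5 (0.291) did not. With DESeq2 all 3 passed (adjusted p = 2.33e-07 for Hoxa5, 1.11e-05 for Hoxb5 and 0.00142 for Slc6a5), and with limma voom none did (0.354, 0.352 and 0.103). Without the robust option in edgeR all 3 passed (adjusted p = 1.8e-07 for Hoxa5, 2.71e-08 for Hoxb5 and 2.71e-08 for Slc6a5). With no filter on low counts Hoxa5 (3.19e-20) and Hoxb5 (2.3e-49) passed in edgeR's test and Slc6a5 (0.0656) did not. Over the alternatives the log2 fold change ran from 8.225 to 10.887 for Hoxa5, 7.457 to 10.512 for Hoxb5 and 3.727 to 4.476 for Slc6a5.

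The Hox counts of code A came from paralogue groups 1 to 8, apart from 1 count of Hoxb13. Summed over groups 1 to 8, the 23 Hox genes in the file held 99.9 and 45.8 CPM in 64A5 and 64A6 (1633 and 692 counts), against 0.126 and 1.08 CPM in 64D6 and 64D7 (2 and 15 counts). The 16 genes of groups 9 to 13, which are used in the thoracic and more caudal cord, had 0 and 1 counts in code A and 0 in both code D libraries. Group 3, with Hoxa3, Hoxb3 and Hoxd3, held 29 and 18.6 CPM in code A, against 0 and 0.361 CPM in code D. Group 5, with Hoxa5, Hoxb5 and Hoxc5, held 35.4 and 14.6 CPM in code A, against 0.0629 and 0 CPM in code D. These were the highest groups of code A.

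**Figure D2:**
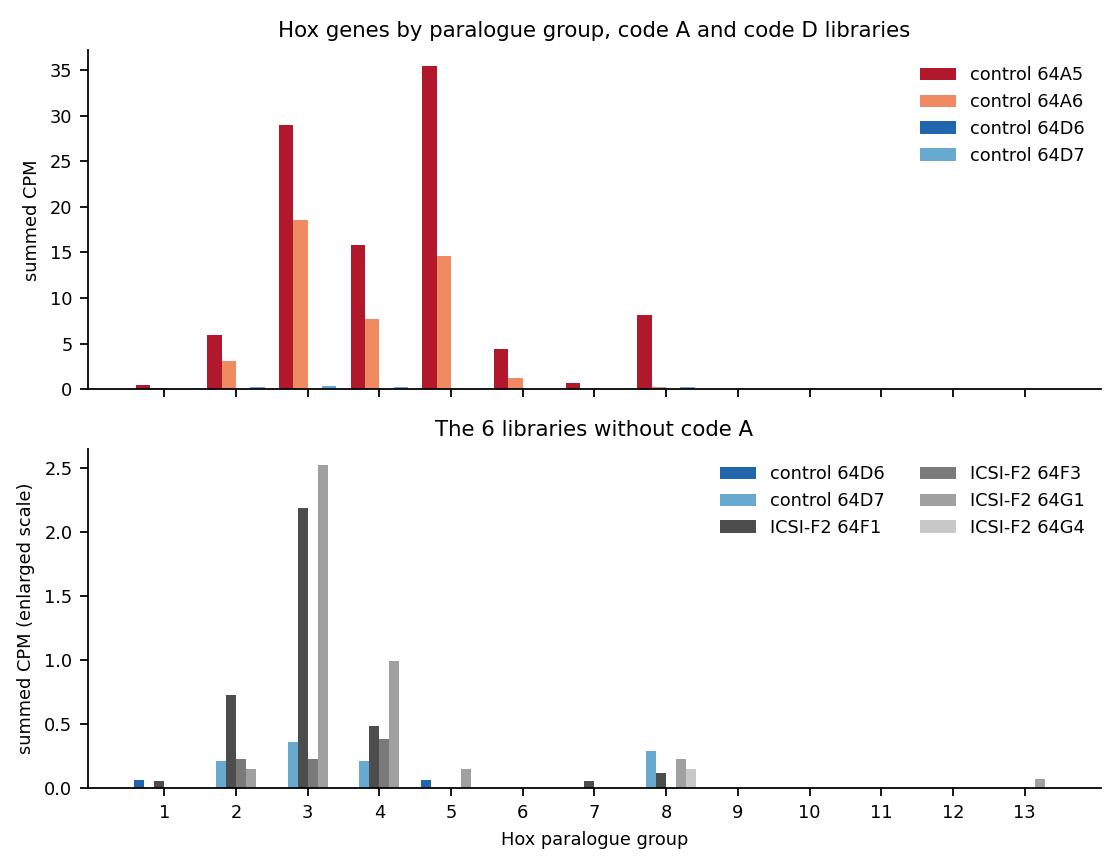
Summed CPM of the Hox genes of paralogue groups 1 to 13. The upper panel shows code A (64A5, 64A6) and code D (64D6, 64D7), the lower panel the 6 libraries other than code A on an enlarged scale; groups 3 and 5 are highest in code A, and group 3 is highest in 64F1 (2.19 CPM) and 64G1 (2.52 CPM).

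Gene by gene, 13 Hox genes passed the filter, which they could do only through their code A counts, so the share passing is a description. The 11 that passed the test were Hoxa2, Hoxb2, Hoxa3, Hoxd3, Hoxa4, Hoxb4, Hoxc4, Hoxd4, Hoxb5, Hoxc5 and Hoxb6. Hoxd3 had 8.13 and 6.75 CPM in code A, against 0 and 0.0722 CPM in code D (edgeR adjusted p = 1.55e-09). Hoxb4, with 59 and 27 counts in code A and none in code D, was at least 27.1-fold higher. Hoxc4, with 108 and 41 counts against none, was at least 47-fold higher, and Hoxb6, with 49 and 14 against none, at least 19.9-fold. Hoxb3 had 241 and 116 counts in code A, against 0 and 3 in code D, and did not pass (edgeR adjusted p = 0.254). Per kilobase of exon, the highest levels in 64A5 were 8.67 RPKM for Hoxa5 and 6.36 RPKM for Hoxb5, and in 64A6 3.17 and 2.66 RPKM. The counting's strand setting is not stated, so overlapping genes are uncertain: Hoxd3 and Hoxd4 share exon bases with each other and with same-strand neighbours (62.3% of the exon bases of Hoxd3 and 52.3% of those of Hoxd4), and 52.9% of Hoxb3 overlaps Hoxb3os on the other strand.

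The 2 code A libraries differed in Hox level, and not by the same ratio in every group. The ratio of 64A5 to 64A6 was 2.16 in group 1 (counting interval 0.492 to 12.9), 1.93 in group 2 (1.35 to 2.79), 1.56 in group 3 (1.34 to 1.82) and 2.04 in group 4 (1.63 to 2.56). It was 2.43 in group 5 (2.08 to 2.85), 3.5 in group 6 (2.09 to 6.15) and 10.2 in group 7 (1.48 to 437), which held few counts. Groups 1 and 2 were thus not below group 3, and the intervals of neighbouring groups overlap. Group 8 rests on Hoxb8 in code A, with 133 counts in 64A5 and 4 in 64A6, a ratio of 30.7 (11.7 to 114). Both code D libraries had 0 counts of Hoxb8, which did not pass the filter on low counts. Over groups 1 to 4 the ratio was 1.73 (1.54 to 1.94), and over groups 5 to 8 it was 3.01 (2.6 to 3.49). By cluster, the ratio was 2.15 for Hoxa, 2.61 for Hoxb, 2.12 for Hoxc and 1.17 (0.911 to 1.51) for Hoxd. These intervals, at 95%, cover counting error only, and a single pair of libraries allows no test of a trend.

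For several genes outside the Hox clusters the 2 code A libraries were closer. The ratio of 64A5 to 64A6 was 1.2 (1.04 to 1.39) for Slc6a5 and 1.1 (1.02 to 1.18) for Nefm. It was 2.13 (1.36 to 3.42) for Prrxl1 and 1.98 (1.3 to 3.07) for Lbx1, both factors of dorsal cord and hindbrain neurons. Of the 123 genes that rose, 11 of them Hox genes, 102 were higher in 64A5 than in 64A6, with a median ratio of 1.06. Of the 41 that fell, 11 were, with a median ratio of 0.953. The share over all tested genes was not counted, so these are descriptions.

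**Figure D3:**
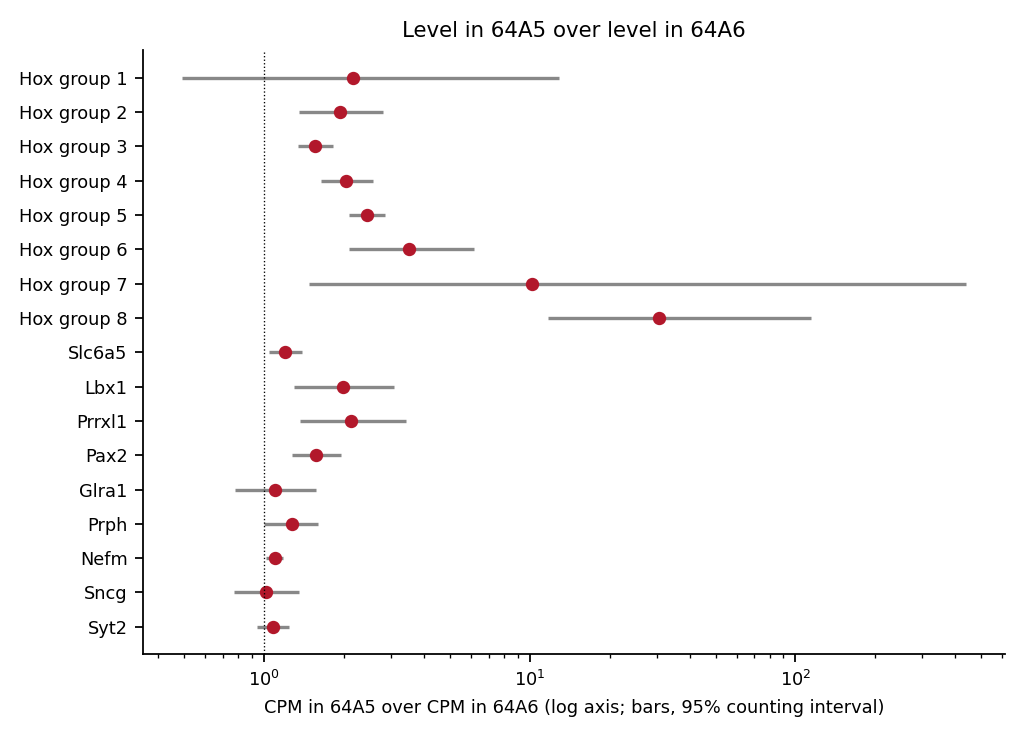
Ratio of CPM in 64A5 to CPM in 64A6, on a log axis, for Hox paralogue groups 1 to 8 and for 9 other genes higher in code A; bars are 95% counting intervals. The ratio is 1.56 to 2.16 in groups 1 to 4 and 30.7 in group 8, while Slc6a5, Glra1, Nefm, Sncg and Syt2 lie between 1.02 and 1.2.

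Of partners and regulators of the Hox proteins, Meis1 alone passed. Of 16 tested members, 1 rose, none fell and 7 lay above 0, with a median log2 fold change of -0.04. Meis1 encodes a homeodomain partner of HOX and PBX proteins that is also abundant in cerebellar granule cells. It had 59.7 and 55.8 CPM in code A, against 30.6 and 31.6 CPM in code D (log2 fold change 0.89, SE 0.12, edgeR adjusted p = 0.00301). The call was lost without 64A5 (0.0929), without 64D6 (0.21) and without 64D7 (0.115). Cyp26b1, a retinoic acid hydroxylase, had 64.8 and 54.1 CPM in code A, against 31.7 and 34.4 CPM in code D, and did not pass (edgeR adjusted p = 0.49). Noncoding transcripts of the Hox clusters were too low to test, with 2.57 and 1.59 CPM summed in code A, against 0.189 and 0.0722 CPM in code D.

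Some transcription factors of hindbrain and cord interneurons rose. Of 51 tested factors, 11 rose, 1 fell and 40 lay above 0, with a median of 0.40. Over all tested genes 0.764% rose, 0.255% fell and 49.4% lay above 0, shares that apply beside the lists below too. Lbx1, which marks dorsal sensory interneurons, had 4.46 and 2.25 CPM in code A, against 0.126 and 0.505 CPM in code D (log2 fold change 3.44, SE 0.55, edgeR adjusted p = 0.000567). Prrxl1, needed for pain circuits of the dorsal horn, had 4.1 and 1.92 CPM in code A, against 0.189 and 0.578 CPM in code D. Tlx3, which selects a glutamatergic fate in the dorsal cord, had 1.83 and 2.05 CPM in code A, against 0.0629 and 0.433 CPM in code D. In each of these 3 genes both code A libraries stood above the other 6.

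Others that rose were Mab21l2 (log2 fold change 1.22), Pax8 (1.84), Nkx6-2 (1.58), Nkx6-1 (1.30), Lmx1b (0.70), Irx1 (0.66) and Lhx1 (0.58). Pax8 is a factor of inhibitory interneurons of the hindbrain and cord, and Nkx6-1 and Nkx6-2 pattern the ventral neural tube. Isl1, a factor of motor, sensory and striatal neurons, fell, with 19.8 and 21.1 CPM in code A, against 25.8 and 29.4 CPM in code D (log2 fold change -0.43, edgeR adjusted p = 0.0287). In Irx1 both code D libraries stood below the other 6, and code A (14.3 and 13.6 CPM) lay inside the ICSI-F2 range of 12.4 to 16.1 CPM, with no pass against the mean of D, F and G (edgeR adjusted p = 0.456). In Isl1 the code D libraries stood apart, above the other 6, and code A lay inside the range of the ICSI-F2 libraries. Outside the list, Mafa (log2 fold change 1.36), Tbx20 (3.12), of hindbrain motor neurons, and Tfap2a (1.46), of neural crest and dorsal interneurons, also rose. Of 29 tested peptide and receptor genes of hindbrain and brainstem, 1 rose (Sst), none fell, 15 lay above 0 and 14 below. Their median log2 fold change was 0.005.

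Genes of glycine transmission lay above 0, but few passed. Of 13 tested members, all 13 lay above 0, 2 rose and none fell, with a median log2 fold change of 0.12. Glra1, the adult-type glycine receptor subunit of brainstem and cord, had 4.53 and 4.11 CPM in code A, against 1.51 and 1.23 CPM in code D (log2 fold change 1.65, SE 0.30, edgeR adjusted p = 0.00228). Slc32a1, the vesicular transporter shared by GABA and glycine neurons, had 84.6 and 83.1 CPM in code A, against 65.9 and 72.6 CPM in code D (log2 fold change 0.28, edgeR adjusted p = 0.0164). Glra2, the subunit that prevails in the immature forebrain and was chosen after its values were seen, had 71.7 and 72.3 CPM in code A, against 67.9 and 73.1 CPM in code D.

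Some motor and cholinergic genes also rose. Of 18 tested motor and cholinergic genes, 4 rose, 1 fell and 14 lay above 0, with a median log2 fold change of 0.24. The shares over all tested genes were 0.764% risen, 0.255% fallen and 49.4% above 0. Prph encodes peripherin, a neurofilament of neurons that project out of the central nervous system. It had 10.8 and 8.54 CPM in code A, against 1.01 and 3.54 CPM in code D (log2 fold change 2.13, SE 0.34, edgeR adjusted p = 0.0064). Ret, a growth factor receptor of motor and sensory neurons, had 28.1 and 30.1 CPM in code A, against 19.2 and 18.8 CPM in code D, and passed under all 11 alternatives. Slc5a7, the choline transporter of cholinergic endings, had 9.23 and 9.8 CPM in code A, against 6.04 and 5.2 CPM in code D. Mnx1, a factor of spinal motor neurons, had 0 and 1 counts in code A and 0 in both code D libraries. Of 14 tested serotonergic genes 1 rose (Lmx1b), and of 8 noradrenergic genes 1 rose.

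Markers of tissues outside the central nervous system were read beside these genes. The sensory ganglion list shares Prph, Ret, Tlx3 and Isl1 with the lists above, and with Sncg these are its 5 members that passed, 4 of them higher in code A. Its summed level was 2500 and 2470 CPM in code A and 2460 and 2510 CPM in code D. The nociceptor channel Trpv1 had 8 and 4 counts in code A and 6 and 4 in code D. Of 23 tested Schwann cell genes, Ngfr rose and none fell, with a summed level of 2080 and 2020 CPM in code A and 1930 and 1970 CPM in code D. Both code A libraries stood above the other 6 in 7 of these 23 genes and below them in 0. In the sensory ganglion list they stood above in 7 of 23 tested genes and below in 0. Over all tested genes the share above was 7.14%. Among 12 tested genes of muscle, cartilage and skin none passed (lowest edgeR adjusted p = 0.321). Their summed level was 90.6 and 85.1 CPM in code A and 89.3 and 89.1 CPM in code D.

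Many genes of large-calibre axons and of fast-spiking maturation, listed together, rose, where 0.764% of all tested genes did. Of 23 tested members 11 rose and none fell, with a median of 0.21, and both code A libraries stood above the other 6 in 12, against 7.14% of all tested genes. The neurofilament subunits Nefm and Nefh give thick axons their diameter. Nefm had 95 and 86.4 CPM in code A, against 48.9 and 47.4 CPM in code D (log2 fold change 0.92, SE 0.08, edgeR adjusted p = 4.04e-07). Nefh had 13.4 and 15.5 CPM in code A, against 5.79 and 5.56 CPM in code D (log2 fold change 1.35, SE 0.15, edgeR adjusted p = 1.66e-06). Syt2, the calcium sensor of fast synapses in the hindbrain and cord, had 27.3 and 25.4 CPM in code A, against 8.99 and 13 CPM in code D (log2 fold change 1.27, SE 0.13). Sncg, a synuclein of peripheral and brainstem neurons, had 6.73 and 6.62 CPM in code A, against 2.08 and 1.52 CPM in code D. These 4 genes passed under all 11 alternatives.

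Presynaptic genes were also higher, by smaller amounts. Of 36 tested, 7 rose and none fell, and 35 lay above 0 with a median log2 fold change of 0.11. Sv2c, a synaptic vesicle glycoprotein, had 97.6 and 84.6 CPM in code A, against 55.5 and 58.2 CPM in code D (log2 fold change 0.68, SE 0.07, edgeR adjusted p = 2.96e-07). Vamp1, the vesicle SNARE of brainstem and cord, had 26.1 and 22.1 CPM in code A, against 14.6 and 15.8 CPM in code D. Syt2, Cplx1, Syp, Slc32a1 and Slc17a6 were the others that rose, the last 4 with log2 fold changes of 0.21 to 0.38. Lamp5, a lysosome-associated membrane protein of inhibitory neurons, had the smallest p of the genes outside the Hox clusters. It had 10.9 and 8.67 CPM in code A, against 1.57 and 1.88 CPM in code D (log2 fold change 2.51, SE 0.26, edgeR adjusted p = 2.96e-07). Kcnk9, a leak potassium channel, had 109 and 93.6 CPM in code A, against 63.4 and 66.9 CPM in code D.

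**Figure D4:**
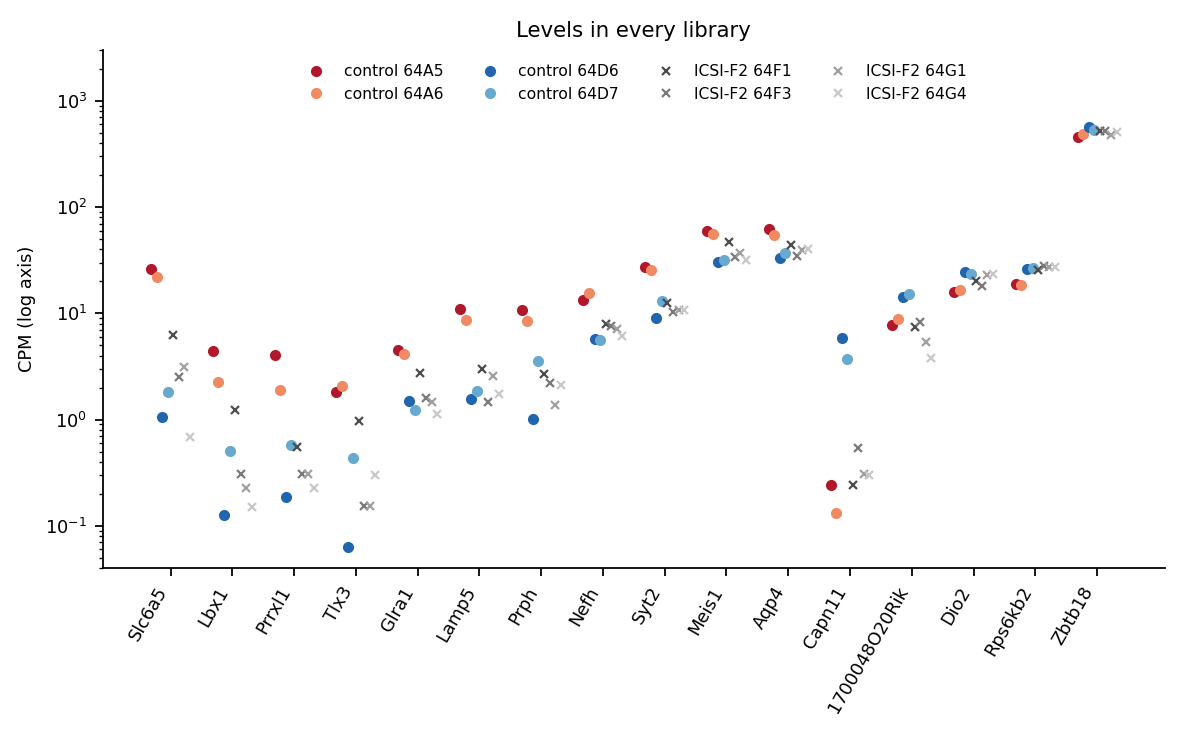
CPM, on a log axis, of 16 genes in each of the 8 libraries; filled circles are control libraries (64A5 and 64A6 in reds, 64D6 and 64D7 in blues) and crosses ICSI-F2 libraries. From Slc6a5 to Aqp4 the code A pair lies above the other 6 libraries, the code D pair lies alone above the rest for Capn11 and 1700048O20Rik, and code A lies below the rest for Dio2 and Rps6kb2.

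For several cerebellar and isthmic genes, library 64F1 was also high. It was likewise the highest library outside code A for Lbx1 (1.22 CPM), Tlx3 (0.976), Glra1 (2.74), Meis1 (47.4) and Nefm (69.4). In each of these it lay below both code A libraries. For Mab21l2, Nkx6-1, Nkx6-2 and Mafa 64F1 was not the highest outside code A. Of 21 tested granule lineage genes 20 lay above 0, 3 rose (Meis1, Pax6 and Tlx3) and 1 fell (Sla), with a median log2 fold change of 0.31. Of 19 Purkinje cell genes Ebf2, Lhx1 and Slc1a6 rose. Among all tested genes 0.764% rose, 0.255% fell and 49.4% lay above 0. For Pax6 and Slc1a6 both code D libraries stood below the other 6, while of code A only 64A5 stood above them. Pax2, a factor of the isthmus and of inhibitory interneurons, had 14.4 and 9.2 CPM in code A, against 0.44 and 0.794 CPM in code D, and did not pass (edgeR adjusted p = 0.313). In 64F1 Pax2 had 6.4 CPM, and in the other 3 ICSI-F2 libraries 0.304 to 0.842 CPM. Fat2, a cadherin of granule cells chosen after its values were seen, had 15.5 and 8.47 CPM in code A, against 2.08 and 1.8 CPM in code D, with 16 CPM in 64F1. Barhl1, a granule cell factor chosen likewise, had 27.6 and 20 CPM in code A, against 9.43 and 11.8 CPM in code D, with 27.7 CPM in 64F1. Neither passed (edgeR adjusted p = 0.539 for Fat2 and 0.554 for Barhl1). Library 64F1 had 0 counts of Hoxa5, Hoxb5 and Hoxc5, and 36 counts of group 3 Hox genes, against 475 and 281 in code A and 0 and 5 in code D.

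Several glial genes rose in code A. Of 29 tested astrocyte genes 7 rose and none fell, with 23 above 0 and a median log2 fold change of 0.18. The shares over all tested genes were 0.764% risen and 49.4% above 0. Aqp4, the water channel of astrocyte endfeet, had 62.4 and 54.5 CPM in code A, against 33.2 and 36.9 CPM in code D (log2 fold change 0.74, SE 0.09, edgeR adjusted p = 2.35e-05). Apoe, Aldoc, Slc6a11, Slc4a4 and Agt also rose, with log2 fold changes of 0.30 to 0.67. The list's summed level was 2660 and 2460 CPM in code A and 2100 and 2170 CPM in code D. In the oligodendrocyte lineage, Bcas1, of newly formed oligodendrocytes, had 8.32 and 7.75 CPM in code A, against 3.71 and 3.18 CPM in code D (log2 fold change 1.22, edgeR adjusted p = 0.00195). Gpr17, of committed precursors, rose by 0.46 on the log2 scale. Mbp, the main myelin protein, had 43.1 and 40.9 CPM in code A, against 33.9 and 34.1 CPM in code D, and missed the threshold (edgeR adjusted p = 0.061). Of 22 radial glia genes 5 rose and none fell, Aldoc and Pla2g7 with the smallest p.

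Some glycolysis and chaperone genes also rose. Of 30 tested glycolysis and hypoxia genes 5 rose, none fell and 26 lay above 0, with a median log2 fold change of 0.13. Aldoa, the muscle and brain aldolase, had 283 and 266 CPM in code A, against 227 and 228 CPM in code D (log2 fold change 0.27, edgeR adjusted p = 0.00125). Hspa5, the chaperone BiP of the endoplasmic reticulum, had 245 and 241 CPM in code A, against 185 and 184 CPM in code D (log2 fold change 0.40, SE 0.05, edgeR adjusted p = 3.4e-06). Code A did not stand apart there, since 64G1 and 64G4 had 251 and 228 CPM of Hspa5. Calr, Xbp1 and Hsph1, chosen after their values were seen, rose by 0.20, 0.35 and 0.21 on the log2 scale. For Xbp1 and Hsph1 both code D libraries stood below the other 6, and at least 1 code A library lay within their range. Neither passed against the mean of D, F and G (edgeR adjusted p = 0.111 for Xbp1 and 0.284 for Hsph1).

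Some forebrain genes fell in code A, by small amounts. Of 34 tested genes of cortical excitatory neurons 6 fell and none rose, 27 lay below 0 and the median log2 fold change was -0.11. The shares over all tested genes were 0.255% fallen and 49.4% above 0. Tbr1, of deep-layer neurons, had 139 and 153 CPM in code A, against 174 and 172 CPM in code D (log2 fold change -0.25, SE 0.05, edgeR adjusted p = 0.0121). Zbtb18, Neurod6, Lmo3 and Mef2c fell by 0.19 to 0.28 on the log2 scale. None of these 5 genes passed in edgeR's test without 64A5 (edgeR adjusted p = 0.0769 to 0.429) or without 64D6 (0.126 to 0.399). In 8 of the 34 genes both code D libraries stood above the other 6 (4.09% of all tested genes), and in 3 both code A libraries stood below (6.04%). Tbr1, Zbtb18, Lmo3 and Mef2c were among these 8, with at least 1 code A library inside the range of the other 6. Against the mean of D, F and G, Tbr1, Lmo3 and Mef2c did not pass (edgeR adjusted p = 0.172 to 0.259). Zbtb18 (0.0206) and Neurod6 (0.0172) passed there. Both code A libraries were below both code D libraries in 21 of the 34, where the share over all tested genes was 20.2%.

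In the striatal and ventral forebrain lists most members also lay below 0, where 49.4% of all tested genes lay above 0. Of 21 striatal genes, 17 lay below 0 and Foxp1 and Isl1 fell, with a median of -0.10. Both code D libraries stood above the other 6 in 8 of the 21 (4.09% of all tested genes). Both code A libraries stood below the other 6 in 2 (6.04%). Against the mean of D, F and G the striatal median was -0.041, with 1 gene passing higher and 0 lower. Foxp1 had 221 and 234 CPM in code A, against 276 and 261 CPM in code D, where both code D libraries stood above the other 6. Of 25 genes of ventral forebrain and cortical inhibitory neurons, 19 lay below 0 with a median of -0.17. Code D stood above the other 6 in 6 of the 25, and code A below them in 3. Against the mean of D, F and G their median was -0.09. None of the 25 fell against code D, and 1, the peptide gene Sst, rose. It had 39.8 and 37.6 CPM in code A, against 30.1 and 29.1 CPM in code D. Thalamic genes had 12 members above and 12 below 0, and hypothalamic genes had a median of -0.12. Outside the lists, the phosphoesterase gene Mpped1 fell, with 265 and 270 CPM in code A, against 334 and 308 CPM in code D, the code A pair below and the code D pair above the ICSI-F2 libraries (log2 fold change -0.26, edgeR adjusted p = 0.00128).

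**Figure D5:**
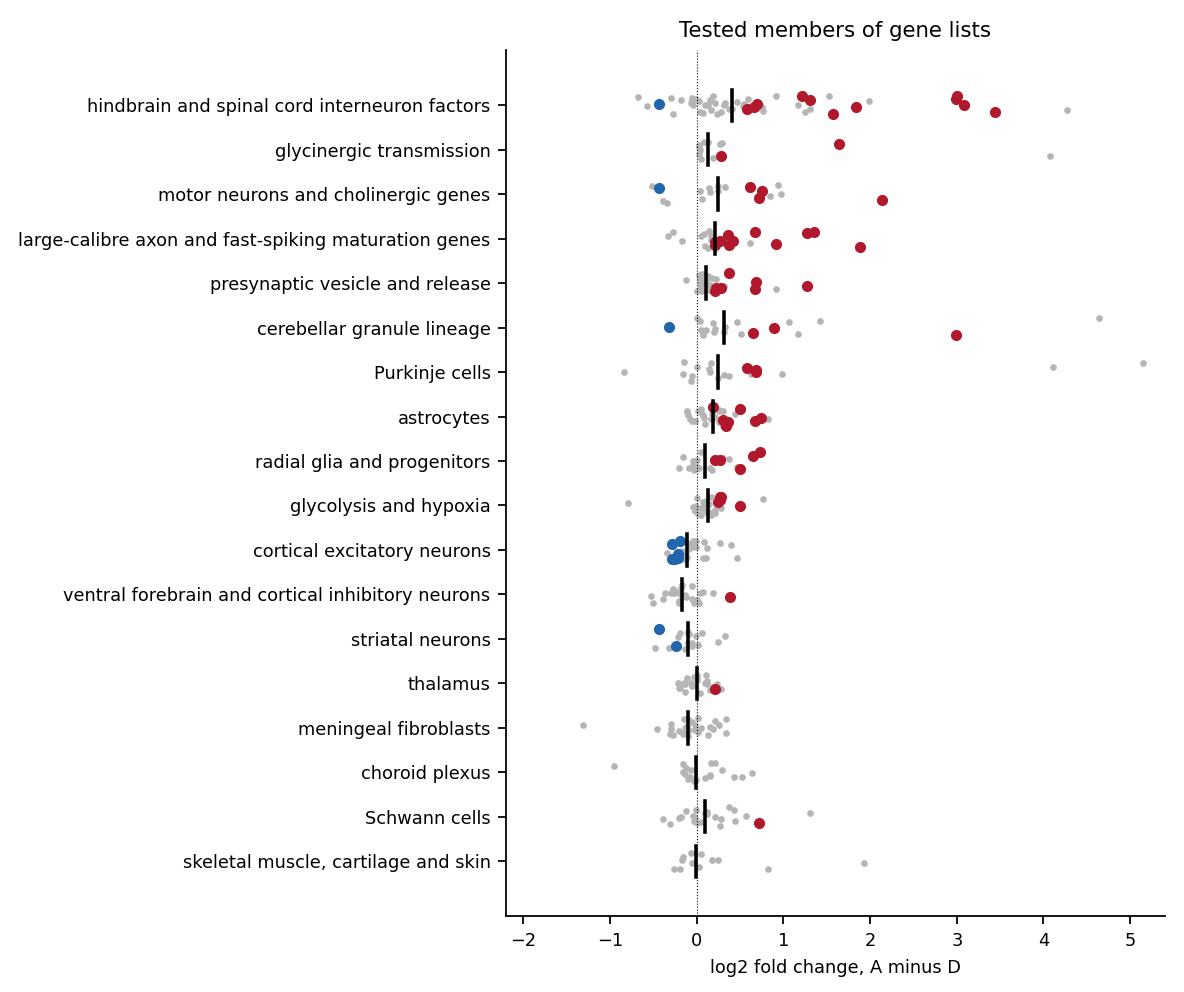
Log2 fold change, code A minus code D, of the tested members of 18 gene lists. Red points passed higher in A, blue points passed lower in A, grey points did not pass, and black bars are list medians; the median is 0.40 for hindbrain and cord interneuron factors and -0.11 for cortical excitatory neurons.

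Part of the difference lay in code D. Of the 123 genes that rose, both code A libraries stood above the other 6 in 110 (7.14% of all tested genes did so) and both code D libraries stood below them in 28 (3.98%). Of the 41 that fell, code A stood below the other 6 in 23 (6.04% of all tested genes) and code D above them in 19 (4.09%). The call used these levels, so the shares are a description. Capn11, a calpain protease best known from testis, had 0.245 and 0.132 CPM in code A, against 5.85 and 3.75 CPM in code D (log2 fold change -4.60, SE 0.47, edgeR adjusted p = 2.96e-07). The ICSI-F2 libraries had 0.244 to 0.538 CPM, so here code A was at the level of the other letters. The gene 1700048O20Rik was also high in code D alone, with 7.77 and 8.94 CPM in code A, against 14.2 and 15.3 CPM in code D and 3.8 to 8.38 CPM in the ICSI-F2 libraries. Dio2, which activates thyroid hormone, was low in code A, with 15.9 and 16.7 CPM, against 24.3 and 23.5 CPM in code D and 18.3 to 23.6 CPM in the ICSI-F2 libraries. Rps6kb2, an S6 kinase, had 18.7 and 18.5 CPM in code A, against 26.4 and 27 CPM in code D and 25.7 to 28.1 CPM in the ICSI-F2 libraries.

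Set against the mean of codes D, F and G, code A had 188 genes higher (1.17% of those tested) and 96 lower (0.596%). This comparison uses the same code A libraries and mixes controls with ICSI-F2 animals. Of the 123 genes that rose against code D, 110 passed in it too, and of the 41 that fell 25 did. Slc6a5 passed there (log2 fold change 3.37, SE 0.41, edgeR adjusted p = 0.0414) and Hoxb5 did (0.00488), while Hoxa5 did not (0.109). Capn11, with a log2 fold change of -2.07, did not pass (edgeR adjusted p = 0.0668). Across all tested genes, both code A libraries lay above both code D libraries in 20.4%.

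In 15 other lists no member passed against code D. They were intermediate progenitors, ependyma and cilia, microglia and macrophages, endothelium and pericytes, meningeal fibroblasts, choroid plexus, blood, liver, the pituitary, pineal and retina list, immediate early genes, proliferation, glutamate receptors, GABA-A receptors, cholesterol synthesis and interferon response. Mitochondrially encoded genes and the list of sex-linked genes had none either. The lowest edgeR adjusted p among these lists was 0.0534, for the glutamate receptor gene Grm4, with 38.6 and 37 CPM in code A, against 29.3 and 29.4 CPM in code D. Summed choroid plexus genes held 568 and 401 CPM in code A and 495 and 473 CPM in code D, so there the 2 code A libraries bracketed code D. Against the mean of D, F and G, 5 meningeal fibroblast genes and 2 sex-linked genes passed lower in code A. So did 1 member each of ependyma and cilia and of microglia and macrophages. Higher there was 1 member each of intermediate progenitors, endothelium and pericytes, immediate early genes, proliferation, glutamate receptors and the pituitary, pineal and retina list. The member of this last list was Gh, the growth hormone gene. It had 13 and 19 counts in code A, 4 and 0 in code D and 0 in each ICSI-F2 library.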

How the data were processed

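Total RNA of neonatal mouse brain was sequenced in 8 libraries as single reads of 76 bases after mRNA library preparation, per the labels. Per the submitters' processing notes reads were handled with HISAT2 2.2.1, HTSeq 2.0.2, cutadapt 3.4 and bcl2fastq 2.20 and the build was mm10. Which annotation was counted, and with which strand option, is not stated, and the labels name 2 stranded kits. The authors deposited raw counts per gene, not normalised.

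From these counts edgeR 4.0.16 (R 4.3.3) was fitted to all 8 libraries as 4 code-letter groups, with TMM scaling, filterByExpr and a robust quasi-likelihood F test. The contrasts were A minus D and A minus the mean of D, F and G, with Benjamini-Hochberg adjustment over 16101 genes and a threshold of 0.05. DESeq2 1.42.0, limma 3.58.1 voom and other fits were alternatives. A gene at 0 in code D was set against a floor of 3 counts per group, and intervals are exact at 95% and cover counting error only. Positions came from GENCODE M21, in which 99.8% of gene IDs were found. The script was tested on simulated data.

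Named genes are the 3 markers, Hox genes with a count in code A, the 15 largest changes and 15 smallest p in each direction among genes that passed with a mean of at least 1 CPM, and up to 4 members of each list with the smallest p. A gene named beyond these is a list member that passed, a marker of another tissue, or is said to be chosen after its values were seen. A few genes the rule names are not reported here. The comparison, its members and the lists were chosen with earlier results of these data known.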

Additional observations from a re-analysis of the deposited data

How the results depend on the processing

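Against code D, genes higher and lower in code A numbered 59 and 18 with DESeq2, 269 and 96 with no filter on low counts, and 189 higher in the 4 control libraries alone. Leaving out 1 library gave 30 to 141 higher and 5 to 69 lower. Against the mean of D, F and G the counts were 84 and 28 with DESeq2, 366 and 187 with no filter, and 50 to 186 and 20 to 83 when 1 code A library was left out. The cause was not tested. The fit with no filter tests more genes, and leaving out a library leaves 1 on that side, assumed to vary like the other groups. Scaling by library total alone put the median log2 fold change of all genes at -0.013, against -0.001, and 70.9% of its calls were higher in code A, against 75.0%. Of 73 named genes that passed, 20 passed under all 11 alternatives. Of these 73, 45 no longer passed without 64A5, 47 without 64D6, 17 without 64D7, 10 without 64A6 and 27 with DESeq2.

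Over all 8 libraries the medians were -0.04 for Hox cofactors, 0.04 for intermediate progenitors, -0.011 for choroid plexus and 0.043 for blood. They were -0.011 for muscle, cartilage and skin and -0.136 for interferon response. These 6 medians changed sign when 1 library was left out. They ran from -0.035 to 0.054 for Hox cofactors, -0.021 to 0.066 for intermediate progenitors, -0.112 to 0.124 for choroid plexus, -0.060 to 0.120 for blood, 0.016 to 0.101 for muscle, cartilage and skin, and -0.272 to 0.195 for interferon response. The log2 fold change of Glra2 ran from -0.020 to 0.084. No paired analysis was possible because the labels give no replicate numbers and codes A and D share only 1 digit. Hox genes with few counts rest on single reads, and 2 libraries a side limit what could be detected.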
